A study of Bos taurus with 8 samples.

Results

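The ribosomal protein genes encode the proteins of the cytosolic ribosome, and their windows were taken here from the MIRA-Seq data of 8 bovine dermal fibroblast cultures. A window was a member when it lay on chromosomes 1 to 29 and its gene symbol was that of a ribosomal protein gene of the large subunit (RPL), the small subunit (RPS), the stalk (RPLP) or RPSA; kinases with RPS6K names were left out. The rule gave 185 windows of 3 kb each, of 902984 in the genome and of 335024 autosomal windows with a gene name. They belonged to 79 loci with 76 symbols on 27 autosomes, and 8 windows on the X chromosome (RPL10, RPL36A, RPL39 and RPS4X) were not members. The first window of a locus by strand, which holds or lies closest to the start of the gene, is treated apart from the others: there were 79 first windows and 106 other windows. Of the 79 loci, 12 covered a single window, 60 covered 2 or 3, and 7 covered 4 or more, up to the 8 windows of RPS14.

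The cultures came from skin of 4 Holstein (dairy) and 4 Angus (beef) heifers, 1 culture and 1 library per animal, all at passage 5, untreated and with no genetic change. MIRA-Seq enriches sonicated genomic DNA for methylated CpG with a methyl-binding protein complex and sequences what is bound, so more methylated CpG in a window gives more reads. Levels are given as CPM, the window's share of all reads counted in windows of that library, scaled to the usual common library size. Cultures are named by breed and animal number.

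Ribosomal protein genes are housekeeping genes that nearly every cell transcribes at a high rate. Their promoters are short, mostly CpG-rich, start at a pyrimidine tract and lack a classical TATA box in most members. CpG-rich promoters of active genes usually carry little methylation, whereas the bodies of active genes are usually methylated, and mammalian genomes hold many processed copies of these genes elsewhere.

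The libraries held between 18691111 and 35525554 reads in windows, and the floor set here, 3 reads in a window, was worth 0.0844 to 0.161 CPM. It covers counting error only. Member windows together held 3830 to 7904 reads per library, or 132 to 281 CPM in sum. The lowest sum in CPM was that of Angus 3, the library with the highest share of reads on unplaced scaffolds (26.1%, against 10.6% in the lowest library). That share lowers every CPM of placed windows in the library. How far it accounts for the low values of Angus 3 was not tested. Holstein 1, with the next highest share, had a sum of 232 CPM, above the 198 to 224 CPM of Angus 1, 2 and 4. Its median first window was low, at 0.253 CPM, near the 0.235 CPM of Angus 3. Values for Angus 3 are pointed out below where they stand apart.

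First windows of ribosomal protein genes held few reads. Their mean level was 0.742 ± 0.143 CPM (SD over libraries, n = 8) and the median window was at 0.430 CPM, against 0.404 for the first windows of all 24038 autosomal loci and 0.457 for autosomal genes that, like the members, covered 1 to 8 windows. At the lower end the members lay higher than these groups, with a 10th percentile of 0.203 CPM, against 0.125 and 0.130 CPM. At the upper end they lay lower. The 90th percentile was 1.25 CPM, against 1.80 for all autosomal first windows and 2.04 for the short genes. A level of at least 1 CPM in at least 4 libraries was reached by 11 of 79 first windows (13.9%), against 21.9% of all and 25.6% of the short genes. Related lists had a low upper end too: the share was 13.5% for mitochondrial ribosomal protein genes (90th percentile 1.04 CPM), 13.6% for ribosome biogenesis genes (1.21 CPM) and 7.69% for translation factor genes, so it was not particular to the members. No test was made of these differences. On average over libraries 48 of the 79 first windows were below 0.5 CPM and 10 were at or above 1 CPM, while 24 held fewer than 3 reads in at least 1 library and 8 held none in at least 1 library.

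**Figure D1:**
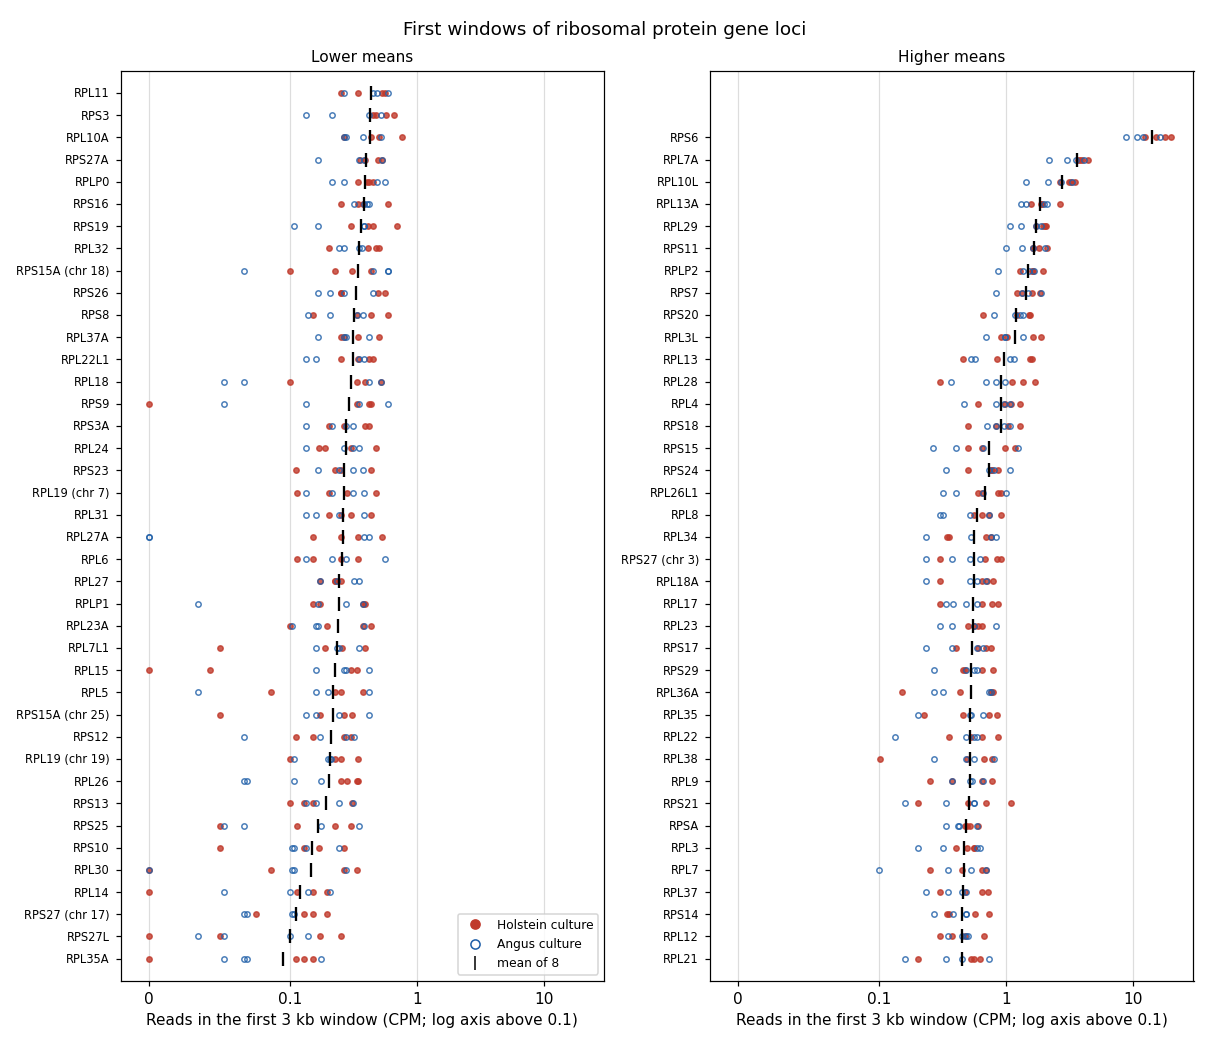
CPM of the first window of ribosomal protein gene loci (x axis, log scale above 0.1 CPM) in each Holstein (filled) and Angus (open) culture, ordered by the mean of the 8 (black bar). Most loci lie below 1 CPM in every culture, and RPS6 stands apart at the top with a mean of 14.2 CPM.

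Levels in the other windows were higher. Their mean was 1.46 ± 0.315 CPM (SD over libraries, n = 8) and their median was 0.603 CPM, which was above the 0.348 CPM of all autosomal gene windows after the first and close to the 0.614 CPM of short genes. At least 1 CPM in at least 4 libraries was found in 32 of 106 (30.2%), against 19.3% of all and 37.7% of short genes. The mean of the other windows exceeded the mean of the first windows in 8 of 8 libraries, by 0.471 to 1.19 CPM. Much of the mean difference came from a single window of RPL19, described below. The difference of the medians, which does not rest on it, was 0.182 ± 0.0719 CPM (SD, n = 8), from 0.101 to 0.325, and was again positive in 8 of 8 libraries. Short genes as a whole had the same direction in 8 of 8 libraries, for means and for medians. Their means were 1.28 CPM in other and 0.935 CPM in first windows, and their library medians averaged 0.611 and 0.456 CPM. The direction was thus not particular to the members. Library medians of first windows were 0.253, 0.476, 0.454 and 0.563 CPM in Holstein 1 to 4, against 0.524, 0.417, 0.235 and 0.321 CPM in Angus 1 to 4, so the breeds overlapped. For the other windows the medians were 0.405, 0.801, 0.700 and 0.690 CPM in Holstein 1 to 4, against 0.681, 0.608, 0.336 and 0.482 CPM in Angus 1 to 4.

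**Figure D2:**
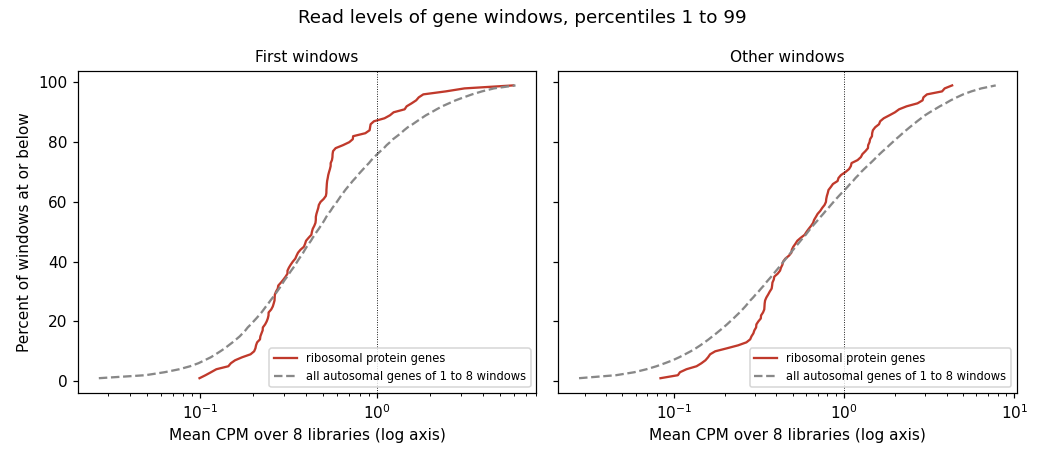
Percent of windows (y axis) at or below a mean CPM over 8 libraries (x axis, log scale) for first windows (left) and other windows (right) of ribosomal protein genes (solid) and of all autosomal genes of 1 to 8 windows (dashed); the dotted line marks 1 CPM. The first-window curve of the members lies behind the dashed curve below about 0.27 CPM and ahead of it above that level. The other-window curves run close together around their medians of 0.603 and 0.614 CPM.

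Read levels rose along the genes in most loci. Among the 67 loci of more than 1 window, the last window was above the first in 48 (71.6%), with a median log2 ratio of last to first of 0.91. The same share was 60.0% among all autosomal genes of 2 to 8 windows. The mean of the windows after the first was above the first in 71.6% of the 67 loci, against 64.2% of these genes. Within single libraries, 43 to 53 of the 67 loci (64.2 to 79.1%) had more reads in the last window, against 56.4 to 59.5% of these genes. The median level of these last windows was 0.669 CPM, near the 0.648 CPM of last windows of short genes, and the median of their first windows was 0.401 CPM, below the 0.465 CPM of short genes. In the profile around the start, medians over loci were 0.639 CPM at 9 kb upstream (3 windows), 0.450 CPM in the window before the first and 0.405 CPM in the first window, and 0.553 to 0.580 CPM in the 3 windows after it. Short genes as a whole were at 0.379 CPM in the window before the first and 0.456 CPM in the first window. The window before the first carried the name of another gene in 31 of 79 member loci (39.2%), of which 21 lay on the opposite strand, against 24.4% of all autosomal loci, so upstream levels are in part levels of neighbouring genes. Where only neighbours without another gene name were kept, the members' medians were 0.444, 0.322 and 0.438 CPM in the 3 windows before the first (33, 39 and 48 loci), so the lowest value was then at 6 kb upstream and no steady fall toward the first window was seen. The windows after the first stayed above it, at 0.504 to 0.574 CPM.

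**Figure D3:**
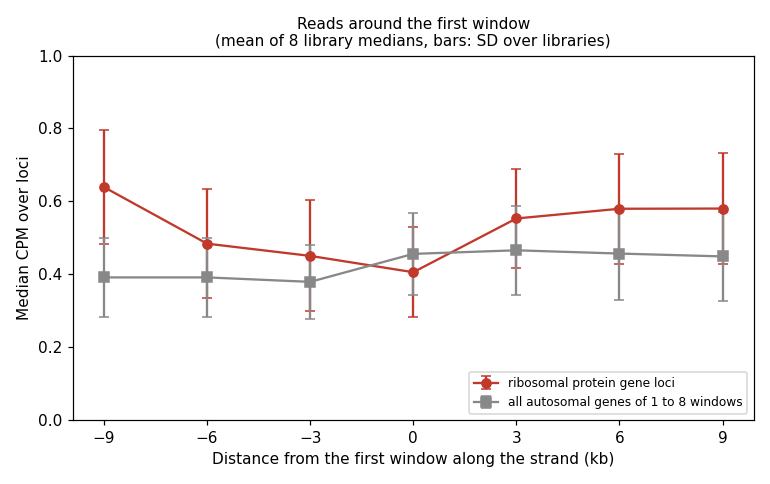
Median CPM over loci (y axis) against the distance of a 3 kb window from the first window along the strand (x axis, kb); points are means of the 8 library medians and bars the SD over libraries. With all neighbours kept, the ribosomal protein loci are lowest at the first window (0.405 CPM) and all genes of 1 to 8 windows just before it (0.379 CPM); without neighbours named for another gene, which are not drawn apart, the members are lowest at 6 kb upstream (0.322 CPM).

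Steep rises within a gene were seen in the following loci. RPL18, a large-subunit protein, rose from 0.302 to 1.94 and 2.93 CPM over its 3 windows, a ratio of last to first of 9.70. Ratios of 5.72, 5.16 and 5.06 followed for RPL35A, RPS9 and RPSA. The ratio of RPL35A rests on a first window near the floor (0.0948 CPM). Its last window, at 0.543 CPM, was below the 0.669 CPM of the median last window of the members. The RPS9 first window was low too, with 0 reads in Holstein 1 and 1 in Angus 4. Falls were fewer and smaller, apart from RPS6 (ratio 0.00761): RPS14 had a ratio of 0.233 and RPL9 one of 0.275. In RPS14, whose 8 windows made it the longest locus, the level went from 0.453 CPM in the first window to a highest value of 1.09 CPM in the fifth and 0.106 CPM in the eighth.

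Among the first windows with the highest levels, RPL7A, a large-subunit protein gene, had 3.61 ± 0.708 CPM (SD, n = 8) at chr11:104312985-104315984. Its values were 3.69, 3.94, 3.82 and 4.45 CPM in Holstein 1 to 4, against 3.04, 4.14, 2.18 and 3.58 CPM in Angus 1 to 4. The breeds overlapped. This window is the only one named for RPL7A and is labelled from coding exon 3, so it does not hold the start of the coding sequence. The same was the case for RPS18 and RPL10A among the 34 loci on the plus strand. For the 45 loci on the minus strand the exon label was not read this way, so their first windows were not checked. RPL10L, an intronless copy of RPL10 known for its expression in testis, had 2.78 ± 0.691 CPM in its only window, chr10:39733601-39736600. It was at 2.68, 3.51, 3.25 and 3.12 CPM in Holstein 1 to 4, against 2.72, 2.16, 1.44 and 3.32 CPM in Angus 1 to 4. The breeds overlapped here too. RPL13A, which also takes part in the translational control of inflammatory genes, followed with 1.85 ± 0.423 CPM, and RPL29, a heparin-binding protein of the large subunit, with 1.72 ± 0.355 CPM. In all 8 libraries these 4 first windows were above 1 CPM.

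RPS6, the small-subunit protein phosphorylated by the S6 kinases, had the highest first window of all members, at 14.2 ± 3.81 CPM (SD, n = 8) in chr8:24924987-24927986, above 99.9% of autosomal first windows. It held 20.1, 12.6, 15.3 and 17.7 CPM in Holstein 1 to 4, against 11.9, 10.7, 8.80 and 16.2 CPM in Angus 1 to 4. The breeds overlapped. These reads were the edge of a longer stretch: the 3 windows just upstream, which carry no gene name, had means of 112, 69.2 and 24.3 CPM, going away from the gene. The second RPS6 window had 0.108 CPM and the next window, named for DENND4C, 0.0611 CPM. The highest depth at any base of the RPS6 first window was 51.2% of its reads (median of the libraries), which ranks at percentile 85.8 of the 769 autosomal gene windows with at least 10 CPM.

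RPL19, a large-subunit protein, had the highest member window. Its second of 3 windows on chromosome 19, chr19:40330275-40333274, had 61.4 ± 28.5 CPM (SD, n = 8), with 105, 105, 50.0 and 36.5 CPM in Holstein 1 to 4, against 66.3, 40.9, 37.8 and 49.8 CPM in Angus 1 to 4. The windows on both sides had 0.207 and 0.792 CPM. The highest libraries were Holstein 1 and 2. Holstein 3 lay within the range of the Angus cultures, and Holstein 4 was the lowest of all 8. The highest depth at a base was 34.2% of the reads, at percentile 65.5 of the same 769 windows, against 12.3 to 29.1% in the 28 other member windows with at least 300 reads over all libraries. The RPS6 and RPL19 windows together held 24.4 to 54.1% of all member reads of a library. Whether such reads came from repeats or from copies elsewhere in the genome was not tested. Without these 2 windows, an alternative chosen after the values were seen, the mean levels were 0.570 CPM for first and 0.894 CPM for other windows, and the difference was positive in 8 of 8 libraries.

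**Figure D4:**
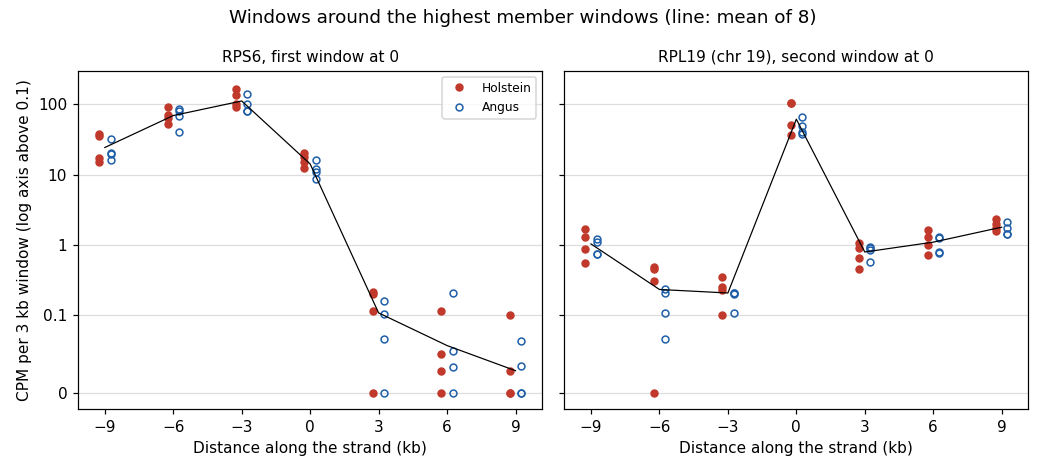
CPM of 3 kb windows (y axis, log scale above 0.1 CPM) against their distance along the strand (x axis, kb) from the RPS6 first window (left) and the RPL19 second window (right), in each Holstein (filled) and Angus (open) culture; the line joins the means of the 8. The RPS6 window of 14.2 CPM lies beside a stretch that reaches a mean of 112 CPM, whereas the RPL19 window of 61.4 CPM stands alone between windows below 1 CPM on average.

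The lowest first windows lay near the floor. RPL35A, a large-subunit gene mutated in some patients with Diamond-Blackfan anaemia, had 0.0948 ± 0.0576 CPM (SD, n = 8) at chr1:70790101-70793100, with no read in Holstein 1. RPS27L had 0.101 ± 0.0839 CPM, and the RPS27 locus on chromosome 17 had 0.113 ± 0.0453 CPM. For RPL14, another large-subunit gene, the mean was 0.121 ± 0.0701 CPM, and for RPL30, which contacts both subunits, it was 0.147 ± 0.130 CPM. The 5 means lay closer together than the SD of RPL30 over libraries. Among the other windows with the highest levels after RPL19 were the last windows of RPS7 (3.90 ± 1.08 CPM) and RPL3L (3.88 ± 1.18 CPM) and the second window of RPL3 (3.11 ± 0.923 CPM).

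Large-subunit genes (38 loci, 88 windows) and small-subunit genes (28 loci, 69 windows) had similar first windows, with medians of 0.451 and 0.415 CPM. In the other windows the medians were 0.496 CPM for the large and 0.786 CPM for the small subunit. The means had the opposite order, 2.02 CPM for the large subunit, which includes the RPL19 window, and 0.986 CPM for the small. The 41 other windows of the small subunit came from 25 loci, and RPS14, with 8 windows in all, held the most. The 3 stalk genes, whose products form the arm of the large subunit that binds elongation factors, differed among themselves. RPLP2 had 1.49 ± 0.323 CPM in its first and 2.84 ± 0.595 CPM in its second window (SD, n = 8), while RPLP0 had 0.394 ± 0.114 and 1.05 ± 0.352 CPM. RPLP1 was the lowest of the 3, with 0.244 ± 0.132 and 0.325 ± 0.195 CPM.

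Of 5 members with further known roles, 3 had a last window above the first, against 71.6% of all member loci of more than 1 window. RPSA, which is also known as the laminin receptor, had 0.484 ± 0.0910 CPM in its first window (SD, n = 8), 0.283 CPM in the second and 1.60, 1.42 and 2.45 CPM in the third to the fifth. RPS19, the gene most often mutated in Diamond-Blackfan anaemia, went from 0.363 ± 0.180 CPM over 0.580 and 2.16 to 1.24 CPM in its 4 windows. RPL11, which binds MDM2 with RPL5 and the 5S RNA, had 0.436 ± 0.131 CPM in its first and 1.67 ± 0.412 CPM in its second window. RPL5 did not follow: its 3 windows had 0.220 ± 0.132, 0.435 ± 0.160 and 0.115 ± 0.0698 CPM. RPS27A, which is made as a fusion with ubiquitin, had 0.401 ± 0.122 CPM in its first and 0.157 ± 0.123 CPM in its second window.

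The paralogs include genes that take the place of a ubiquitous member in particular tissues. RPL3L, the striated muscle counterpart of RPL3, had 1.18 ± 0.407 CPM in its first window (SD, n = 8), against 0.470 ± 0.149 CPM for RPL3. The values of RPL3L were 0.910, 1.64, 1.02 and 1.89 CPM in Holstein 1 to 4, against 0.977, 1.36, 0.974 and 0.696 CPM in Angus 1 to 4. For RPL3 they were 0.405, 0.563, 0.492 and 0.563 CPM in Holstein 1 to 4, against 0.593, 0.626, 0.201 and 0.321 CPM in Angus 1 to 4. RPL3L was thus the higher of the pair in each library. RPL26L1 was also above RPL26, with 0.678 ± 0.242 against 0.205 ± 0.116 CPM. Other pairs went the opposite way: RPL7L1 had 0.235 ± 0.107 CPM against 0.466 ± 0.219 CPM for RPL7, RPL22L1 had 0.313 ± 0.118 CPM against 0.522 ± 0.215 CPM for RPL22, and RPS27L had 0.101 ± 0.0839 CPM against 0.562 ± 0.247 CPM for RPS27 on chromosome 3. The 6 paralogs had a median first window of 0.496 CPM, so they did not share a level.

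All 76 symbols were found in the RefSeq genes of a later assembly (ARS-UCD2.0), which was used for names only, and 75 of the 79 loci lay on the chromosome RefSeq gives for the symbol. The other 4 were RPS27 on chromosome 17, where RefSeq lists the pseudogene RPS27P, RPL19 on chromosome 7, RPL36A on chromosome 15 and RPS15A on chromosome 18. These second loci had first windows of 0.113, 0.265, 0.528 and 0.346 CPM. RPS15A on chromosome 18 was the only one with further windows, and their means lay between 0.186 and 0.473 CPM. Near-identical copies share reads, and how the counting placed such reads is not given in the sources used here.

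Chromosomes 18 and 19 held 16 of the 79 loci. Their other windows had a median of 0.769 CPM, against 0.513 CPM for member windows on the other autosomes and 0.647 CPM for all other gene windows of chromosomes 18 and 19. First windows there had a median of 0.355 CPM, against 0.449 CPM for members on the other autosomes and 0.548 CPM for all first windows of these chromosomes. The values for all genes of chromosomes 18 and 19 were not restricted to genes of 1 to 8 windows. RPS9, RPS19, RPL18 and RPL13A lie on chromosome 18.

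Related gene lists are given for comparison. Mitochondrial ribosomal proteins, which build the separate ribosome of the mitochondrion, had a median first window of 0.406 CPM over 74 loci and 0.381 CPM in their other windows. Translation factors had 0.215 CPM over 13 loci and 0.297 CPM, and ribosome biogenesis genes, which act in the nucleolus, had 0.377 CPM over 22 loci and 0.415 CPM. These medians of other windows were below the 0.603 CPM of the ribosomal protein genes, but the order did not hold for other measures: 33.6% of the other windows of ribosome biogenesis genes reached 1 CPM in at least 4 libraries, against 30.2% of the members, and the mean of the mitochondrial list was 1.48 CPM, against 1.46 CPM. The lists were not restricted to genes of 1 to 8 windows.

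The study's comparison asks whether methylation levels differ between Holstein and Angus cultures. No member window passed as a differentially methylated region in edgeR's likelihood-ratio test (FDR < 0.1 and a fold change of at least 2): 0 of the 43 members among the 115360 windows tested, where the background was 0.231% of all windows called (0.039% higher in Holstein and 0.192% higher in Angus). At an unadjusted p under 0.05 there were 2 of 43, against 4.94% of all windows. The quasi-likelihood test called 0 of the 43 (0.122% of all) and had 2 at that unadjusted level (4.47% of all), and DESeq2 likewise called 0 (0.122%) and had 2 (3.29%). The filter of 1 CPM in at least 4 libraries had left 43 of the 185 member windows. The median log2 fold change (Holstein over Angus) of the 43 was 0.02, against -0.00 for all windows, and 22 of 43 were above 0, against 49.6% of all. With total counts in place of TMM factors, 39 of 43 were above 0, as were 77.5% of all windows, whose median moved by 0.14; 24 of 43 were above that median. The 95% intervals of 40 of the 43 members lay within a 2-fold change in either direction, and over all 43 they spanned -1.19 to 1.37.

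With reads summed per gene, 50 of the 79 loci were tested among 19417 genes and 0 were called, against 0.0721% of all genes, of which 0.0103% were higher in Holstein and 0.0618% higher in Angus. At an unadjusted p under 0.05 there was 1 of 50, against 2.11% of all. The quasi-likelihood test called 0 of the 50 and 0% of all genes (1.78% of all at the unadjusted level), and DESeq2 called 0 of the 50 and 0.0309% of all (1.44% at the unadjusted level). Higher values in Holstein were found in 29 of 50, against 43.4% of all genes, and in 46 of 50 with total counts only, against 89.1% of all. The interval of 49 of 50 loci lay within a 2-fold change, so larger breed differences of these gene sums were outside the intervals for all tested loci but RPL19.

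**Figure D5:**
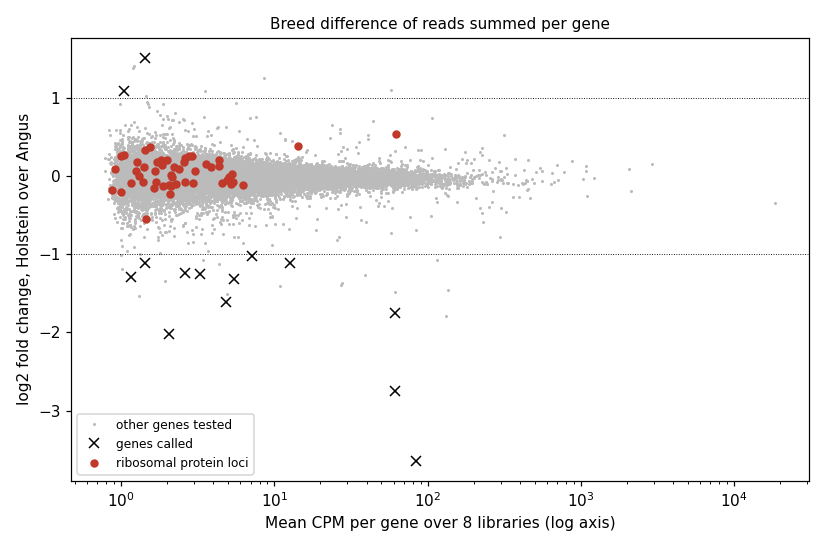
Log2 fold change of Holstein over Angus (y axis) against the mean CPM of a gene over 8 libraries (x axis, log scale), with reads summed per gene; large dots are the 50 ribosomal protein loci tested, crosses the genes called and small dots all others, and dotted lines mark 2-fold changes. The members lie between -0.55 (RPLP0) and 0.54 (RPL19), and none is called.

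The 2 windows with an unadjusted p under 0.05 were the last windows of RPLP0 and RPS19. In RPLP0, at chr17:64809994-64812993, the reads were 8, 16, 31 and 40 in Holstein 1 to 4, against 45, 33, 33 and 22 in Angus 1 to 4. As CPM this was 0.849 ± 0.367 in Holstein and 1.25 ± 0.215 in Angus (SD, n = 4), and the breeds overlapped. The log2 fold change in edgeR's likelihood-ratio test was -0.70 (SE 0.25), with an adjusted p of 0.499. In the RPS19 window, chr18:51687398-51690397, the reads were 31, 37, 37 and 59 in Holstein 1 to 4, against 31, 31, 14 and 20 in Angus 1 to 4. Its CPM was 1.56 ± 0.112 in Holstein and 0.925 ± 0.303 in Angus (SD, n = 4), and the lowest Holstein culture (1.40 CPM) was above the highest Angus culture (1.08 CPM). On TMM-scaled CPM it was the only 1 of the 43 windows without overlap of the breeds, against 2.63% of all windows. The log2 fold change was 0.61 (SE 0.22) in edgeR's likelihood-ratio test, with an adjusted p of 0.448, and it was 0.51 without Angus 3, the lowest library.

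Per gene, the largest differences toward Holstein were a log2 fold change of 0.54 (SE 0.35) for RPL19, 0.38 (SE 0.25) for RPS6, 0.37 (SE 0.22) for RPL21, 0.33 (SE 0.20) for RPL17 and 0.28 (SE 0.26) for RPL26. All had an adjusted p of 1.00 in edgeR's likelihood-ratio test. The first pair rested largely on Holstein 1, without which RPL19 was at 0.08 and RPS6 at 0.07. Toward Angus, RPLP0 had -0.55 (SE 0.23, unadjusted p = 0.0162 in edgeR's likelihood-ratio test), followed by RPS9 at -0.23 (SE 0.27; -0.45 without Angus 3, whose sum of 0.604 CPM was far below the 2.62 to 2.79 CPM of the other Angus cultures), RPL27 at -0.21 (SE 0.25), RPL34 at -0.18 (SE 0.27) and RPS20 at -0.14 (SE 0.20). On TMM-scaled CPM none of the 50 loci had breeds that did not overlap, against 1.41% of all genes. Of the comparison lists, 62 mitochondrial ribosomal protein genes, 17 ribosome biogenesis genes and 9 translation factor genes were tested, and 0 were called in each. Without the CPM filter, all 185 member windows entered and again 0 were called (0.102% of all), with 9 at an unadjusted p under 0.05, against 4.55% of the 887821 windows. The lowest adjusted p there, 0.252 in edgeR's likelihood-ratio test, was that of the second RPL6 window, a large-subunit gene named here after its values were seen, with 6, 19, 7 and 15 reads in Holstein 1 to 4, against 8, 2, 4 and 0 in Angus 1 to 4 (log2 fold change 1.57).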

How the data were processed

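The authors filtered low-quality reads, aligned them to UMD v3.1 with NextGENe v. 2.3.4 and deposited raw read counts for consecutive 3 kb windows, with 1 gene name and a coding exon number. They also deposited the mean and the highest coverage per window as an unscaled signal, of which the highest was used to see how far reads were stacked. The submitters' processing notes name CASAVA 1.7. The handling of duplicate and multiply mapped reads is not given in the sources used here, and no input library was used, so CpG density and copy number also affect the counts.

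CPM was computed over the reads of all windows. Breeds were compared in R 4.3.3 with edgeR 4.0.16 (TMM, windows or genes reaching 1 CPM in 4 or more samples, likelihood-ratio test, Benjamini-Hochberg adjustment over all windows or genes), per window and with reads summed per chromosome, symbol and strand. The SE is the log2 fold change divided by the root of the test statistic. The procedure was tested on simulated data. DESeq2 1.42.0, the quasi-likelihood test, other scaling and filters, autosomes only, a block for the animal number and fits without single samples were tried as alternatives. Levels and profiles were computed in Python 3.11.15 with pandas 2.3.3 and numpy 2.4.6 and were not tested.

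Each culture came from a different animal, 4 per breed. No pair of libraries within a breed agreed within sampling noise (chi-square per window 2.65 to 12.0). The members and lists were chosen with earlier results of these data known. Named were any called member, the 5 largest fold changes in each direction per gene, the 5 highest first and other windows, the 5 lowest first windows, the paralogs with their partners, the stalk genes, RPSA, RPS27A, RPS19, RPL5 and RPL11; loci with the steepest change along the gene were added after their values were seen. No RPL39L window was among the members, and RefSeq's RPL36, RPS2 and RPS28 had no window under that name. No sequence was used. Of the items this rule names, 1 member and 1 short comparison list are not reported here.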

Additional observations from a re-analysis of the deposited data

Results flagged for a closer look

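In groups of 4, a single library stood apart from its breed in 5 of 96 groups examined, where chance gives about 1 in 20. The RPL35A first window was highest in Angus 1 at 0.175 CPM, against 0.0535 to 0.0695 CPM in the other Angus cultures, all of them near the floor of 3 reads. In the last RPLP0 window Angus 1 was also the highest, at 1.57 CPM against 1.11 to 1.18 CPM. Angus 3 was the lowest in the last RPS19 window, at 0.470 CPM against 1.07 to 1.08 CPM, and in the RPS9 gene sum, at 0.604 CPM against 2.62 to 2.79 CPM. Its mean over all first windows was 0.446 CPM, against 0.707 to 0.756 CPM in the other Angus cultures. Angus 3 also had the highest share of reads on unplaced scaffolds (26.1%). Autosomes held 72.5% of its reads, against 81.5 to 83.8% in the other Angus cultures. The part of the unplaced share in these values was not tested.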

How the results depend on the processing

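The count of member windows or genes called was 0 under every alternative run, for windows and for gene sums. The gene fold change of RPS20 changed sign with total counts only (0.025). CPM over autosomal reads alone gave means of 0.899 CPM for first and 1.78 CPM for other windows. Medians in place of means gave 0.405 and 0.588 CPM with a difference of 0.182 CPM, and without the RPS6 and RPL19 windows the values were 0.570, 0.894 and 0.324 CPM. In the profile, the mean was 2.08 CPM in the window before the first (median 0.450, and 2.83 CPM where only windows without another gene name were kept), 0.742 CPM in the first (median 0.405, without the RPS6 window 0.570) and 1.71 CPM in the next (median 0.553, without the RPL19 window 0.943). The upstream mean rests on the stretch beside RPS6. The other alternatives left these means within the spread between libraries. Members at an unadjusted p under 0.05 numbered 0 to 4 when the filter required all 8 samples or a sample was left out, for windows, and 0 to 3 for gene sums, where the shares of all windows and genes were 4.24 to 6.17% and 1.55 to 6.36%. The 4 windows were found without Angus 1 (of 42, against 6.17% of all) and without Angus 3 (of 43, against 5.39%), and the 3 genes without Angus 4 (of 49, against 2.20%). The animal number did not pair the cultures (mean correlation of deviations -0.02 for the same number and 0.01 for different numbers). With it as a replicate block 0 members were called (0.3% of all windows and 0.0876% of all genes), and 3 of 43 windows (5.06% of all) and 1 of 50 genes (1.87% of all) had an unadjusted p under 0.05. The level without windows shared with another gene was not run, because a window carries 1 gene name, and the promoter sequence description was not run. Depth limits the low first windows: 24 of 79 were under 3 reads in at least 1 library. Only 11 of 79 first windows passed the CPM filter of the window test, and the smallest detectable breed difference was not worked out.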
